A study of Mus musculus with 27 samples.

Results

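Tight junctions seal the space between neighbouring epithelial cells, and 8 genes that build them are described here across control, Runx1KO and ZebDKO mK4 cells. The genes encode cytoplasmic scaffold proteins (Tjp1, Tjp3, Cgn and Cgnl1), MARVEL proteins of the junction membrane (Ocln, Marveld2 and Marveld3), and the immunoglobulin-type adhesion protein F11r. They were chosen by gene symbol, and all 8 were found among the 24953 genes of the expression table.

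In an epithelium, occludin and the other MARVEL proteins sit in the membrane strands of the junction beside the claudins, and F11r, also known as junctional adhesion molecule A, sits next to these strands. The zonula occludens scaffolds, among them Tjp1 and Tjp3, bind the tails of several of these membrane proteins. The cingulins (Cgn and Cgnl1) join the scaffolds to actomyosin and microtubules. Zeb1 and Zeb2 are repressors of epithelial genes that bind E-box sequences, whereas Grhl2 activates many genes of epithelial junctions.

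The mK4 line is a mouse cell line from kidney metanephric mesenchyme. Control cells were unedited mK4 cells. Runx1KO cells are clonal mK4 sub-lines in which CRISPR/Cas9 removed exon 3 of Runx1, and in ZebDKO cells the same method deleted the start codon exons of both Zeb1 and Zeb2. All cells were grown in medium with serum and collected near confluency. RNA-seq was made from 3 libraries per genotype, and ATAC-seq (open chromatin) and Runx ChIP-seq lists were available for control and Runx1KO cells only. The sources used here do not say whether the 3 libraries of a knockout came from 1 clone or several, so clone and genotype cannot be told apart, and p-values measure the spread between these libraries.

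Expression was given in TPM, which is scaled for gene length and library total, while the number of reads is unknown. Levels are compared between genes within 1 table only, since the other deposited table gave some genes another level. The 9 libraries each had 12541 to 12697 genes at 1 TPM or more, and libraries of 1 genotype correlated at 0.994 or higher (Pearson's r across genes, which are not independent replicates). Of 10 markers of metanephric mesenchyme, 6 were at 1 TPM or more in every control library, whereas Six2, Wt1, Hoxd11 and Hoxc11 were at 0 to 0.3 TPM. In Runx1KO libraries Osr1 (0.3 to 0.5 TPM) and Gdnf (0.1 TPM) were also under 1 TPM. Of 5 mesenchymal markers, Vim was at 2748.8 to 2887 TPM in control, 2782.2 to 2844.7 TPM in Runx1KO and 2075.9 to 2114.3 TPM in ZebDKO libraries. Twist2 was at 889.1 to 934.5, 347.7 to 355.8 and 541.3 to 589.1 TPM in these groups and was called lower in Runx1KO cells (log2 change -1.38). Col1a1 was at 1.7 to 3.5 TPM, and Twist1 and Col1a2 were at 0.3 TPM or less throughout. The summed level of 7 epithelial markers was 2.8 to 4.6 TPM in control, 2427 to 2519 TPM in Runx1KO and 1104 to 1159 TPM in ZebDKO libraries. In both knockouts nearly all of it was Krt8. Cdh1, the defining cadherin of epithelia, was at 0.6 TPM or less in all 9 libraries, and Epcam was listed at 0 in control and Runx1KO but at 26.7 to 28.8 TPM in ZebDKO libraries. F11r and Tjp1 are also used by endothelium and leukocytes. Of 6 endothelial markers, Pecam1, Kdr, Tek, Tie1 and Emcn were at 0.2 TPM or less throughout. Cdh5 was at 2.8 to 4.4, 1 to 1.2 and 3.6 to 5.5 TPM in control, Runx1KO and ZebDKO libraries and was called lower in Runx1KO cells (log2 change -1.14), and it made up most of the summed list (2.9 to 4.6, 1 to 1.4 and 3.7 to 5.8 TPM). The leukocyte marker Ptprc was listed at 0 in all 9 libraries, while the 6 leukocyte markers summed to 2.5 to 3.4, 31.3 to 33 and 26.3 to 29.5 TPM. Most of this sum was Cd68 (1.9 to 2.5 TPM) in control libraries. In Runx1KO and ZebDKO libraries most of it was Csf1r (28.8 to 30.5 and 23.1 to 26.1 TPM). The part of all these markers in the results below was not tested.

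The targeted genes were read next. Runx1 was at 18.7, 15.6 and 17.9 TPM in control and at 30.3, 30.1 and 28.5 TPM in Runx1KO libraries, and Zeb1 was at 15.1, 14.2 and 15.6 TPM in control and 16.8, 16.6 and 14.8 TPM in ZebDKO libraries. TPM counts reads over all exons, and a deleted exon is therefore not visible in it, so these levels neither check nor contradict the labels. Zeb2 fell from 5.5, 4.9 and 5.2 TPM in control to 1.7, 1.8 and 1.6 TPM in ZebDKO libraries. In Runx1KO libraries both Zeb1 (0.1 to 0.2 TPM) and Zeb2 (0.2 TPM) were close to 0.

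Across the 8 genes, 4 rose in Runx1KO cells (Cgn, Ocln, F11r and Tjp3) and 3 rose in ZebDKO cells (Cgn, Ocln and F11r), while none fell past the threshold in either. Calls required a log2 fold change beyond 1 in either direction together with an adjusted p under 0.05 in limma. At this threshold 7.91% of the 13067 genes tested were called higher and 5.1% lower in Runx1KO cells, and 7.49% and 7.28% of 12974 were called higher and lower in ZebDKO cells. Only 6 of the 8 genes reached 1 TPM in 3 libraries and were tested, since Marveld2 and Marveld3 were near 0 in every library, and Ocln passed this filter only through the knockout libraries in which it was high. The Runx1KO and control libraries did not overlap for the 6 tested genes, as for 73.7% of all genes tested. The ZebDKO and control libraries did not overlap for 5 of the 6, as for 81% of all genes, and those of the knockouts did not overlap for the 6, as for 81.7%. When the knockouts were compared with each other, Tjp1, Tjp3 and Cgnl1 were higher in Runx1KO than in ZebDKO cells, against 9.2% of 13071 genes called higher and 6.59% called lower. Both comparisons with control use the same 3 control libraries, whereas the direct comparison of the knockouts does not involve them.

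**Figure D1:**
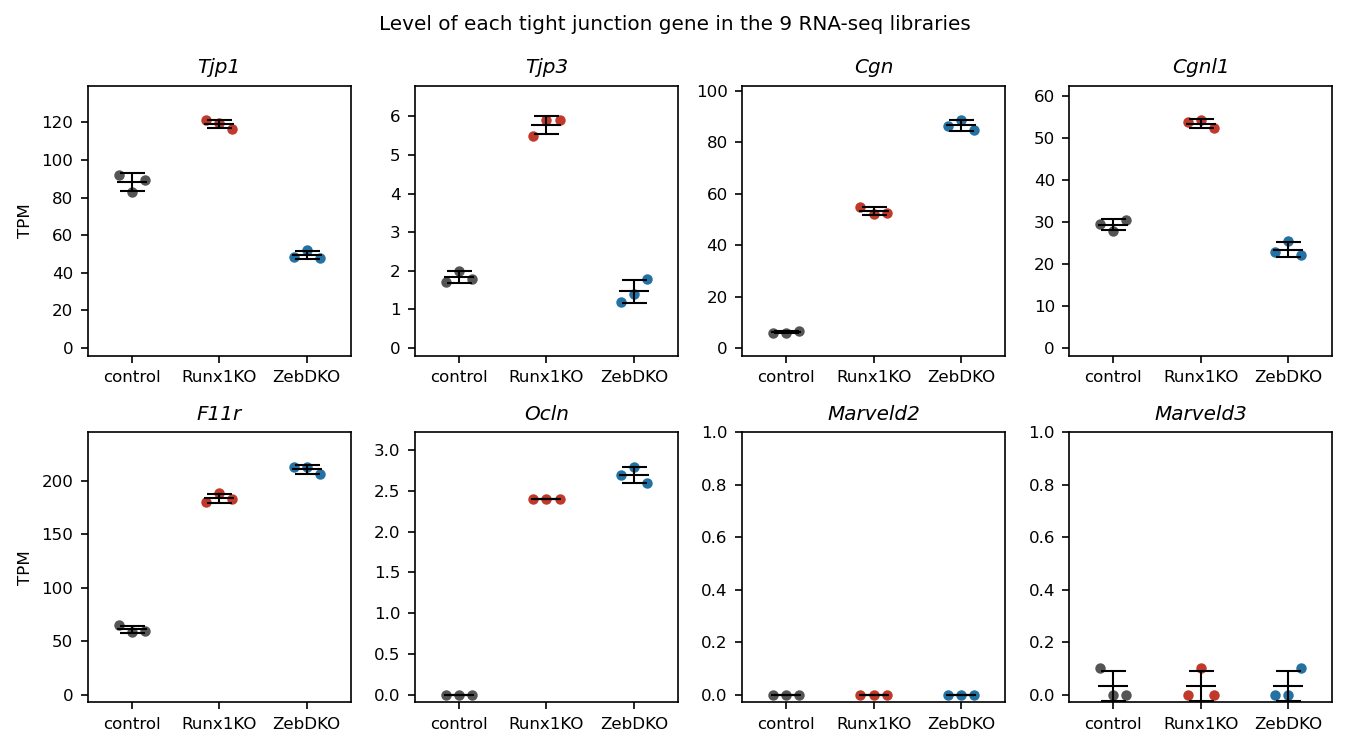
Level of each gene in TPM (y axis, a separate scale in each panel) in the 3 control, 3 Runx1KO and 3 ZebDKO libraries (points), with the mean and SD of each group in black. Cgn, F11r and Ocln are higher in both knockouts, Tjp1 and Cgnl1 are highest in Runx1KO and lowest in ZebDKO, Tjp3 is highest in Runx1KO, and Marveld2 and Marveld3 lie at or near 0.

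The whole expression table shifted between genotypes. The median log2 fold change of all genes tested was -0.06 for Runx1KO and -0.18 for ZebDKO over control, and 0.15 for Runx1KO over ZebDKO. With the libraries scaled so that this median was near 0, 1183 genes were higher and 661 lower in ZebDKO cells in place of 972 and 944, and 908 were higher and 1058 lower in Runx1KO than in ZebDKO cells in place of 1203 and 862. Values under this median-ratio scaling are given beside several results below.

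Cgn, which encodes cingulin, a plaque protein that ties the zonula occludens scaffolds to actomyosin, had the largest fold change of the 5 members for which a fold could be given. It was measured at 5.9, 6.0 and 6.7 TPM in control, 54.9, 52.2 and 52.7 TPM in Runx1KO, and 86.5, 88.6 and 84.6 TPM in ZebDKO libraries. No library of 1 genotype overlapped another genotype. The mean level was 8.59-fold higher in Runx1KO and 14-fold higher in ZebDKO than in control cells. On the log2(TPM + 1) scale the changes were 2.92 (SE 0.054, adjusted p = 2.40e-08) and 3.61 (SE 0.054, adjusted p = 1.18e-08). Cgn was 1.63-fold lower in Runx1KO than in ZebDKO cells, a difference of -0.69 (SE 0.034, adjusted p = 1.55e-06), which was under the fold limit for a call.

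The 5′ end of Cgn lay in chromatin that was accessible in both control and Runx1KO cells (chr3:94589949-94590830, mm9), and the gained accessibility lay inside the gene. Of the 3 Runx1KO-induced ATAC-seq peaks in the gene, those at 2952 and 5045 bp downstream of the nearest start (chr3:94586942-94587913 and chr3:94584949-94585719) were in introns and held CAGGTA or CAGGTG, the E-box letters that Zeb proteins bind. A further induced peak 115333 bp downstream belongs to Cgn only through an annotated transcript that runs far beyond the others and overlaps Selenbp2, and RNA reads in that stretch could come from either gene. None of these peaks overlapped a Runx1 or Runx2 ChIP-seq peak. Elsewhere in Cgn, Runx1 peaks of control cells lay in introns 19752 and 119611 bp downstream of the nearest start. Their deposited fold over local background was 5.94 and 5.49, and the farther one belongs to Cgn only through the same long transcript. Runx2 peaks of control cells overlapped both, and no Runx2 peak of Runx1KO cells did. The first sequence is 120 bases of the intronic peak nearest to the start (chr3:94587010-94587129, minus strand) with its E-box in capitals, where CACCTG is CAGGTG read on the other strand. The second is 120 bases directly upstream of the 5′ end (chr3:94590415-94590534, minus strand), with a match to the Grhl consensus AACCNGTT on the other strand in capitals.
Cgn intronic induced peak: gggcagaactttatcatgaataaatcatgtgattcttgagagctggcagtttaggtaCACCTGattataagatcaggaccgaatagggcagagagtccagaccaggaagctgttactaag
Cgn upstream of the start, accessible in both: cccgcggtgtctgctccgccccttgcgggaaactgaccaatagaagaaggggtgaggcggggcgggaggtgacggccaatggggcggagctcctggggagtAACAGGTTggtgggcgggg
The Grhl match lies 15 bp upstream of the nearest annotated start. Such a match was present in 1.8% of the 300-bp windows at the middle of the accessible regions shared by both genotypes.

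Cgnl1 encodes the cingulin paralog paracingulin, which is found at adherens as well as tight junctions. Its TPM was 29.6, 28.0 and 30.6 in control, 53.8, 54.3 and 52.4 in Runx1KO, and 22.8, 25.4 and 22.2 in ZebDKO libraries. The Runx1KO libraries were all above and the ZebDKO libraries all below the control libraries. The mean was 1.82-fold higher in Runx1KO than in control cells (log2 change 0.84, SE 0.041, adjusted p = 2.44e-06), short of the fold limit. It was 1.25-fold lower in ZebDKO cells, a log2 change of -0.31 (SE 0.062, adjusted p = 0.00212), which was -0.12 with an adjusted p of 0.0827 under median-ratio scaling. Between the knockouts it was 2.28-fold higher in Runx1KO cells (log2 difference 1.16, SE 0.053, adjusted p = 1.19e-06). This call was lost under median-ratio scaling, where the difference was 0.998, directly at the limit.

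The balance of the 2 cingulins differed between the genotypes. The ratio of Cgn to Cgnl1, both in TPM, was 0.199 to 0.219 in control, 0.961 to 1.02 in Runx1KO and 3.49 to 3.81 in ZebDKO libraries. The ranges of the 3 genotypes did not overlap, and a ratio within a library does not depend on how the libraries were scaled. The Cgnl1 start was accessible in both genotypes (chr9:71618374-71619626), and its single induced peak lay in an intron 103744 bp downstream.

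Tjp1 encodes ZO-1, the scaffold that links claudins, occludin and F11r to actin. It was at 92.3, 83.0 and 89.2 TPM in control, 121.2, 119.6 and 116.6 TPM in Runx1KO, and 48.3, 52.2 and 48.1 TPM in ZebDKO libraries. The knockouts moved to opposite sides of the control libraries, with no overlap. Relative to control, the mean was 1.35-fold higher in Runx1KO (log2 change 0.43, SE 0.043, adjusted p = 9.57e-05) and 1.78-fold lower in ZebDKO cells (log2 change -0.82, SE 0.052, adjusted p = 6.02e-06), and neither reached the fold limit. The direct difference between the knockouts was 2.41-fold, or 1.25 on the log2 scale (SE 0.040, adjusted p = 2.40e-07), and passed it. Under median-ratio scaling the ZebDKO change was -0.62 and the direct difference 1.09, with the same calls.

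The Tjp1 start was accessible in both genotypes (chr7:72515220-72516457) and overlapped weak Runx2 peaks in both, with a deposited fold over local background of 3.42 in control and of 3.25 and 4.03 in Runx1KO cells. Its induced peak lay 56272 bp downstream of the start in a coding exon (chr7:72459450-72459809). A region that lost accessibility in Runx1KO cells lay 39622 bp upstream of the gene (chr7:72555404-72556091) and overlapped Runx1 and Runx2 peaks, although Tjp1 RNA was not lower in these cells.

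Tjp3 encodes ZO-3, a scaffold found mainly in epithelial tight junctions. It was low throughout, at 1.7, 2.0 and 1.8 TPM in control, 5.5, 5.9 and 5.9 TPM in Runx1KO, and 1.2, 1.4 and 1.8 TPM in ZebDKO libraries. The Runx1KO libraries were all higher than the others, whereas control and ZebDKO libraries overlapped. The mean was 3.15-fold higher in Runx1KO than in control cells (log2 change 1.26, SE 0.070, adjusted p = 5.16e-06) and 3.93-fold higher than in ZebDKO cells (log2 difference 1.46, SE 0.10, adjusted p = 7.87e-06). For ZebDKO over control the log2 change was -0.21, with a 95% confidence interval of -0.47 to 0.06 (adjusted p = 0.126), which does not reach a rise of the size seen in Runx1KO cells. Under median-ratio scaling it was -0.08 (adjusted p = 0.54). Tjp3 overlaps Apba3, and whether strand was used in counting was not given in the sources used here.

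Tjp3 had an induced peak in an intron 6265 bp downstream of its start (chr10:80747569-80747926) and another 6900 bp upstream (chr10:80760507-80761318), each with 2 CAGGTG matches. The intronic stretch that holds both of its matches (chr10:80747597-80747716, minus strand) reads as follows, with the matches in capitals.
Tjp3 intronic induced peak: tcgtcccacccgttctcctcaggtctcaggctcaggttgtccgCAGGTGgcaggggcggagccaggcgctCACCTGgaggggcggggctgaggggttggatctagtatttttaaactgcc
The neighbouring accessible region at 5310 bp was shared by both genotypes and overlapped Runx1 and Runx2 peaks, whereas the induced peaks overlapped neither.

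F11r encodes a junctional adhesion molecule that binds its partner on the next cell and recruits polarity proteins. It was the most abundant of the 8 genes in both knockouts, at 179.7, 188.4 and 182.7 TPM in Runx1KO and 213.2, 213.1 and 206.0 TPM in ZebDKO libraries, against 65.0, 58.5 and 59.8 TPM in control libraries. The knockout libraries were all above the control libraries. The mean was 3.0-fold higher in Runx1KO (log2 change 1.57, SE 0.044, adjusted p = 1.75e-07) and 3.45-fold higher in ZebDKO cells (log2 change 1.77, SE 0.045, adjusted p = 8.55e-08). Between the knockouts the difference was -0.20 (SE 0.029, adjusted p = 4.50e-04), and -0.36 under median-ratio scaling, both under the fold limit. Relative to Tjp1, to which it binds, F11r was at a ratio of 0.670 to 0.705 in control, 1.48 to 1.58 in Runx1KO and 4.08 to 4.41 in ZebDKO libraries. Its level depends on the table, since a further deposited table of the control and Runx1KO libraries listed F11r at 31.92 to 34.92 and 102.79 to 108.11 TPM, under Tjp1 in all 6 libraries, with a log2 change of 1.65.

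The chromatin over the F11r start was listed among the regions gained in Runx1KO cells. An induced peak covered the start (chr1:173367270-173368175) and another lay in an intron at 7737 bp (chr1:173375228-173375579). The start peak held 1 CAGGTG and 1 CAGGTA, 94 and 209 bp upstream of the start, and 1 AP-1 match (TGACTCA). The intronic peak held 1 CAGGTA and 2 AP-1 matches. The sequences are 120 bases upstream of the start (chr1:173367513-173367632) and 120 bases of the intron (chr1:173375380-173375499), both on the plus strand with the E-box in capitals.
F11r upstream of the start, induced peak: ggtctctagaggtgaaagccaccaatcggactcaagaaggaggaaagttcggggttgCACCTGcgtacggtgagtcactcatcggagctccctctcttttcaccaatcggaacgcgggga
F11r intronic induced peak: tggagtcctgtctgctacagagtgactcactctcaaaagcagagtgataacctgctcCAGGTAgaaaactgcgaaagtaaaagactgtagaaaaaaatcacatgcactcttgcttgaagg
No Runx1 or Runx2 peak lay between 10 kb upstream and the end of F11r.

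Ocln encodes occludin, the first membrane protein known from tight junction strands. It was listed at 0 TPM in all 3 control libraries, at 2.4 TPM in each Runx1KO library, and at 2.7, 2.8 and 2.6 TPM in ZebDKO libraries. Both knockouts were above control without overlap, and called in limma (adjusted p = 1.85e-06 and 1.29e-06), but no fold can be given against a level listed at 0. Ocln entered both tests only through the knockout libraries in which it was high, so these calls add little to the levels. The SD was 0 in control and in Runx1KO libraries, and the p-value for Runx1KO therefore measures no spread between them. In the other deposited table, with 2 decimals, Ocln was at 0.08, 0.08 and 0.04 TPM in control and 7.01, 7.04 and 7.47 TPM in Runx1KO libraries, so the direction was the same and the level was higher in that table. The difference between the knockouts was -0.12 on the log2(TPM + 1) scale (95% confidence interval -0.28 to 0.03, adjusted p = 0.128). Under median-ratio scaling it was -0.24 with an adjusted p of 0.011. With the TPM of the other deposited table, 4 of the 8 genes were called higher in Runx1KO cells, 2 of the 6 tested were not called and 0 were lower. Of all 12374 genes tested there, 7.57% were called higher and 4.99% lower.

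Ocln had the most induced peaks of the 8 genes. Of its 4, a peak covered the start (chr13:101322223-101323266) and held 5 CAGGTG matches, and the next lay 993 bp downstream in an intron (chr13:101321240-101321605) with 2 CAGGTG and 1 CAGGTA. The others were at 9115 and 16211 bp, and no Runx1 or Runx2 peak lay in the gene or the 10 kb upstream. The letters shown are the 30 bases of the start peak that hold 2 matches (chr13:101322362-101322391) and 120 intronic bases (chr13:101321383-101321502), both on the minus strand with matches in capitals, where TACCTG is CAGGTA on the other strand.
Ocln at the start, induced peak: ggcggCAGGTGcaccggcCAGGTGagcacc
Ocln intronic induced peak: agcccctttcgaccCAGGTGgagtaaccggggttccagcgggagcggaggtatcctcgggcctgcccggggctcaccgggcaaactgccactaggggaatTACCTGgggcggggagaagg
Ocln has 5 annotated starts, and the 30 bases lie 38 bp from the nearest.

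Marveld2 encodes tricellulin, a MARVEL protein of tricellular contacts, and Marveld3 a further family member. Marveld2 was listed at 0 TPM in all 9 libraries, and Marveld3 at 0.1 TPM in 1 library of each genotype and at 0 in the other libraries. Neither was tested, and the other table listed both at 0.07 TPM or less in its 6 libraries. Marveld2 lies next to Ocln on chromosome 13. Its start had no accessible region within 5 kb, and its only induced peak was in its last part, 20189 bp downstream of the nearest start. Marveld3 had no induced peak in its span and was the only one of the 8 with a Runx1 peak within 5 kb of a start (chr8:112481009-112481335, deposited fold 4.22), in a region accessible in both genotypes and also bound by Runx2.

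**Figure D2:**
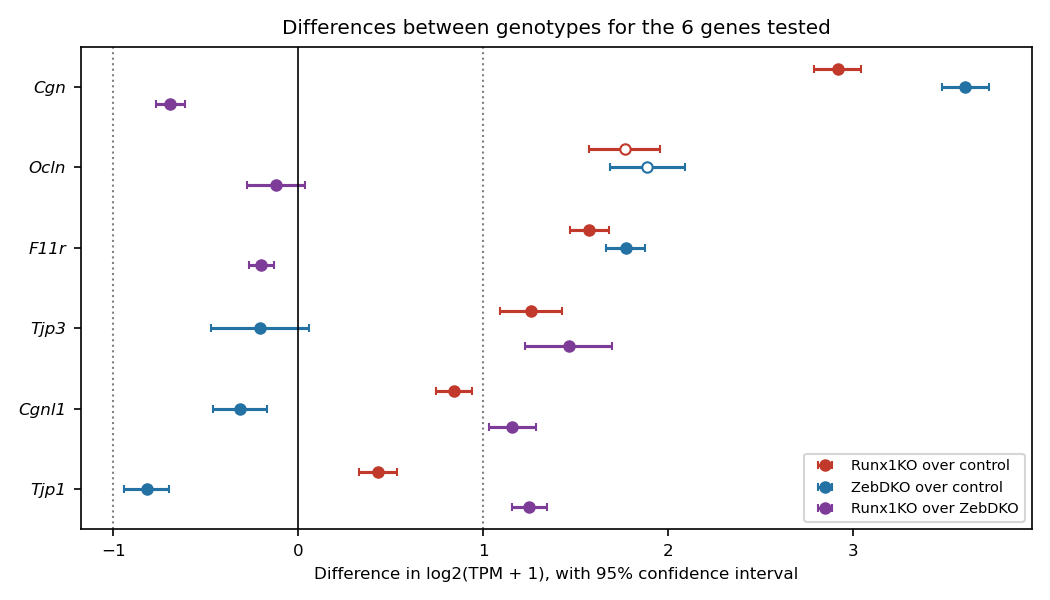
Difference in log2(TPM + 1) (x axis) for the 6 genes tested in each of the 3 comparisons, with bars for the 95% confidence interval, n = 3 libraries per group, and dotted lines at the fold limit. Hollow points mark Ocln against control, where the control level is listed at 0 and the value depends on the added 1. Cgn, Ocln and F11r lie right of the limit in both knockouts, and Tjp1, Cgnl1 and Tjp3 lie right of it for Runx1KO over ZebDKO.

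Put in order of level, the control libraries ran Tjp1, F11r, Cgnl1, Cgn, Tjp3, with the 3 MARVEL genes at or near 0, and no neighbours among the first 5 overlapped. In Runx1KO libraries the order was F11r, Tjp1, then Cgnl1 and Cgn with overlapping ranges (52.4 to 54.3 and 52.2 to 54.9 TPM), then Tjp3 and Ocln. In ZebDKO libraries Cgn moved above Tjp1 and Cgnl1, and Ocln (2.6 to 2.8 TPM) stood above Tjp3 (1.2 to 1.8 TPM). The place of F11r above Tjp1 in Runx1KO cells did not hold in the other table.

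Considered together, 7 of the 8 genes had an induced ATAC-seq peak between 10 kb upstream and their end. The share was 19% of the 20260 genes in the expression table that had a position. It was 23.6% among the 11148 of these genes that were tested in Runx1KO cells, and 64.6% among the 881 called higher there. Long genes hold more peaks, and Cgnl1 and Cgn span 145094 and 125908 bp. Induced peaks were present in all 4 genes called higher, in both genes tested and not called (Tjp1 and Cgnl1), and in 1 of the 2 genes not tested. Within 5 kb of a start, the 3 genes with an induced peak were Ocln, F11r and Cgn, against 9.17% of all genes. All of them were called higher in both knockouts. The share within 5 kb among all genes called higher was not computed, so this is not read as particular to these genes. No gene had a peak that lost accessibility in Runx1KO cells in this span, against 14.9% of all genes. These lists hold no values per replicate and no ATAC-seq of ZebDKO cells was analysed here, so none of these counts has a test.

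**Figure D3:**
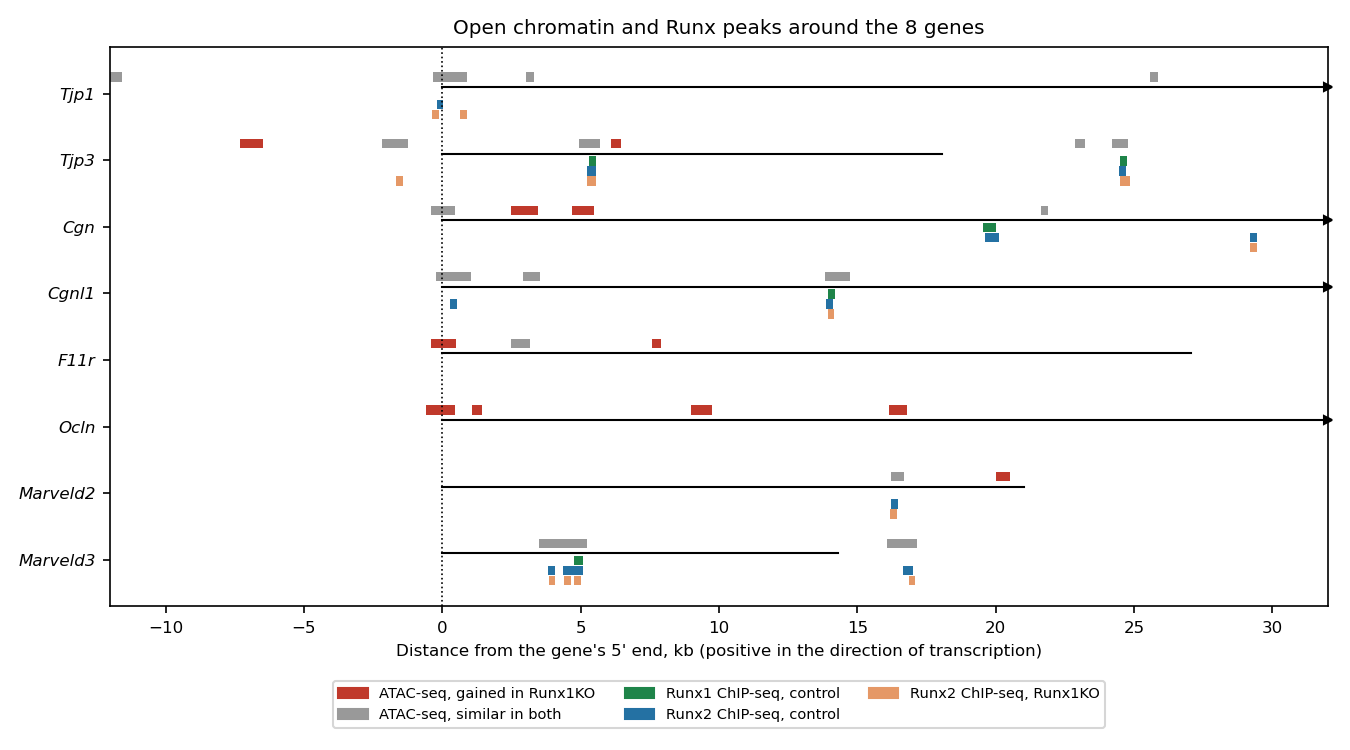
ATAC-seq regions gained in Runx1KO cells (red) or similar in both genotypes (grey), and ChIP-seq peaks of Runx1 and Runx2, by distance in kb from the 5′ end of each gene (x axis). The black line is the gene, an arrow marks a gene that runs on past the plot, and peaks narrower than 0.25 kb are drawn 0.25 kb wide. Red regions cover the start of Ocln and F11r and lie inside Cgn, and none of them sits over a Runx peak.

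Runx ChIP-seq peaks were found in 4 of the 8 spans for Runx1 (23.1% of all genes), and in 6 for Runx2 both in control (41.8%) and in Runx1KO cells (41.9%). Among the 11148 genes with a position that were tested in Runx1KO cells, the shares for these 3 kinds of peak were higher, at 33.4%, 62.9% and 64.5%. Among the 881 of them called higher in Runx1KO cells, the shares were 19.9%, 45.4% and 41.8%. Ocln and F11r had none of the 3 kinds. Within 5 kb of a start, the peaks remained in 1 gene for Runx1 (14.8% of all genes) and in 3 for Runx2 in control (33.1%) and in Runx1KO cells (34.5%). With 50 kb added on each side, 2 genes had a region that lost accessibility, against 35.3% of all genes. Of the 14 induced peaks in the 8 spans, 0 overlapped a Runx1 or Runx2 peak. The share among all 9427 induced regions was not computed, and the paper describes very little Runx1 binding at such regions in general. This count is therefore not read as particular to the 8 genes. CAGGTA or CAGGTG, searched on both strands, was present in 12 of these 14 peaks. In the 300-bp window at the middle of each peak it was found in 10 of 14 (71.4%), beside 62.7% of all 9427 induced, 33.3% of shared and 18.7% of lost regions. The Runx letters TGTGGT were in 2 of the 14 windows, beside 20.9% of all induced windows, AP-1 letters in 3 (33.3%) and AACCNGTT in 1 (2.66%). A match describes the letters and does not show that a factor was bound.

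Most genes of a further tight junction list, which held no claudins, were not called. The paper reports the claudin gene Cldn4 as higher in both knockouts. Of 27 further plaque, membrane and signalling genes, 23 were tested in Runx1KO cells, of which 3 were higher, 2 lower and 18 not called, with a median log2 change of -0.07 beside -0.06 for all genes. Of all genes, 7.91% were called higher and 5.1% lower in this comparison, and 7.49% and 7.28% in ZebDKO cells. In ZebDKO cells 22 were tested, of which 3 were higher, 2 lower and 17 not called, with a median of 0.02 beside -0.18 for all genes. Lsr, the angulin that recruits tricellulin to tricellular contacts, rose from 0.3, 0.5 and 0.2 TPM to 25.4, 25.3 and 23.5 TPM in Runx1KO and 58.1, 56.5 and 60.1 TPM in ZebDKO libraries (log2 changes 4.28 and 5.48). Like Ocln, it passed the filter on low values only through the knockout libraries. The polarity scaffold Patj, listed as Inadl, rose by 2.28 and 1.89, and the junctional adhesion protein Igsf5 by 1.64 and 1.24.

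Jam3, a relative of F11r, went the other way. It was at 31.1, 29.1 and 32 TPM in control, 0.8, 0.1 and 0.7 TPM in Runx1KO, and 5.3, 6.9 and 6.3 TPM in ZebDKO libraries, with log2 changes of -4.40 and -2.15. Amot, the angiomotin scaffold, fell in Runx1KO cells (log2 change -1.67) and Rab13, a GTPase of junction traffic, in ZebDKO cells (-1.04), although the call of Rab13 was lost under median-ratio scaling (-0.85). Between the knockouts, Jam3 (-2.25), Lsr (-1.20) and Amot (-1.20) were lower in Runx1KO and no gene of the list was higher. With the TPM as deposited, Csda (Ybx3) had the smallest change in Runx1KO cells (0.0099, adjusted p = 0.81), Amotl1 in ZebDKO cells (0.0067, adjusted p = 0.926) and Mpdz between the knockouts (0.064, adjusted p = 0.447). This order depended on the scaling. Under median-ratio scaling Ybx3, Amotl1 and Mpdz were at 0.07, 0.20 and -0.07 in the same comparisons, and Rab13 was at -0.0015 between the knockouts.

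**Figure D4:**
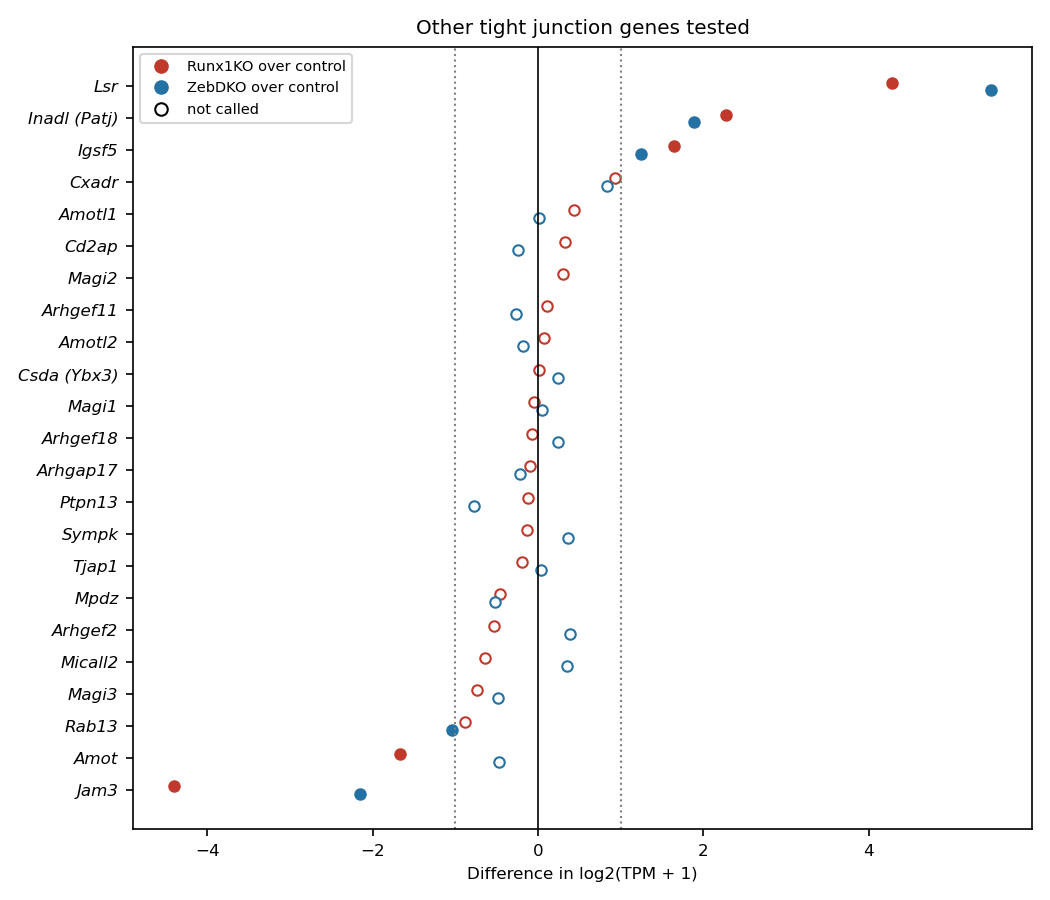
Difference in log2(TPM + 1) (x axis) of the other tight junction genes tested, for Runx1KO (red) and ZebDKO (blue) over the same 3 control libraries, filled where called and hollow where not, with dotted lines at the fold limit. Lsr, Inadl (Patj) and Igsf5 are higher in both knockouts, Jam3 is lower in both, and most genes lie between the dotted lines.

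Regulators of junction genes differed between the knockouts in which Cgn, Ocln and F11r rose. Grhl2, the epithelial activator, was at 0.1 TPM in each control library, 5.0, 5.0 and 4.9 TPM in Runx1KO and 1.1, 1.4 and 0.9 TPM in ZebDKO libraries. It was called higher in Runx1KO cells (log2 change 2.44, SE 0.071, adjusted p = 2.07e-07), where it passed the filter only through the Runx1KO libraries. In the comparison of ZebDKO with control Grhl2 was under the filter, although its ZebDKO libraries were all above control. By RT-qPCR the paper reports a similar rise of Grhl2 in both knockouts. The paper also lists Ovol1 and Cgn as Grhl2 targets that were higher in both RNA-seq sets. Ovol1, an epithelial zinc finger repressor, rose by 1.22 in Runx1KO cells (adjusted p = 3.32e-04). Without the Runx1KO libraries it too would have missed the filter. Ovol1 was at 0.7 to 0.8 TPM in ZebDKO against 0.4 to 1 TPM in control libraries, and these ranges overlapped. Between the knockouts, Grhl2 was higher in Runx1KO cells by 1.49 (SE 0.098, adjusted p = 6.29e-06). In the other deposited table Ovol1 was at 0.18 to 0.44 TPM in control and 1.14 to 1.66 TPM in Runx1KO libraries, and its log2(TPM + 1) change of 0.87 was under the limit. Grhl1 differed by 0.18 in Runx1KO and by -0.90 in ZebDKO cells from control, and was called in neither. Runx1 was at 9.4 to 10.5 TPM in ZebDKO libraries, a log2 change of -0.73 from control that was not called. Between the knockouts, 4 of the 6 targeted or regulator genes were called higher in Runx1KO cells (Runx1, Grhl1, Grhl2 and Ovol1). The other 2, Zeb1 and Zeb2, were called lower, against 9.2% and 6.59% of all genes. Grhl2 and Ovol1 would have missed the filter without the Runx1KO libraries, and Zeb1 and Zeb2 without the ZebDKO libraries. Their calls therefore add little to the levels. The 6 genes were chosen as targets and regulators with earlier results known, so their calls are not read against these shares. The Grhl1 call was lost under median-ratio scaling (0.94).

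Each tested member was also set beside the genes whose profile over the 9 libraries was nearest, by Euclidean distance of log2(TPM + 1) after centring, among 12697 genes. The nearest to Cgn were Dennd1c and Wdr72 (distances 0.365 and 0.541), and the nearest to F11r were Hip1r and Foxa1 (0.162 and 0.202). Ocln was nearest to Plcg2 and Depdc7 (0.248 and 0.255). Tjp1 was nearest to Luzp1 and Cpne2 (0.121 and 0.136), Tjp3 to Tmem8b and Crip2 (0.276 and 0.284), and Cgnl1 to Pla2g12a and Cep97 (0.145 and 0.171). Dennd1c, for example, had means of 0.1, 8.77 and 13.4 TPM in control, Runx1KO and ZebDKO libraries. None of the 8 genes was among the 2 nearest to another.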

How the data were processed

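RNA-seq was measured in 9 libraries (3 per genotype). Reads were trimmed (Trim Galore), mapped by STAR against the mm9 genome and freed of duplicates. From featureCounts 1.6.2 counts of RefSeq genes the authors deposited TPM with 1 decimal for 9 libraries and with 2 decimals for 6. The use of strand was not stated. Depth cannot be read from TPM. The labels describe the preparation of ZebDKO libraries in other words, and the 6-library table leaves them out, so a batch and the ZebDKO genotype cannot be told apart.

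Genes at 1 TPM or more in 3 of the 6 libraries compared were fitted on log2(TPM + 1) with limma 3.58.1 (R 4.3.3, trend in the prior variance, Benjamini-Hochberg). The pseudocount of 1 understates changes of low genes. The fit was tested on simulated data.

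The authors called MACS2 peaks on combined replicates (ChIP-seq) or kept those found in replicates (ATAC-seq). ChIP-seq lists hold a deposited fold (a ratio to local background), score and -log10 p and q. In the ATAC-seq lists the deposited log2 fold change and -log10 p of the authors were not used, and regions were taken by class. Spans ran from 10 kb upstream to the gene end (GENCODE vM1, mm9, overlap of 1 bp). Sequences were read from the mm9 genome.

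The 8 members and the gene lists were chosen with earlier results of these data known. A gene of the other tight junction list is not reported here. Named were all members, each called gene of the other tight junction list and the one with the smallest change, the 2 nearest profiles of each tested member, and 6 targeted or regulator genes. The printed sequences were chosen after the peaks were seen.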

Additional observations from a re-analysis of the deposited data

Results flagged for a closer look

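In 3 genes the Runx1KO and ZebDKO libraries differed past the fold limit in the direct limma comparison of the knockouts. Tjp3 differed by 1.46 on the log2 scale (95% confidence interval 1.23 to 1.70), Tjp1 by 1.25 (1.16 to 1.34) and Cgnl1 by 1.16 (1.03 to 1.28), each higher in 3 of 3 Runx1KO libraries than in any ZebDKO library. Libraries of these groups did not overlap for 81.7% of all genes tested in this comparison. The control libraries are not part of this comparison, and a clone or a ZebDKO batch cannot be told apart from genotype in it. The Cgnl1 call was lost under median-ratio scaling, where the difference was 0.998. Tjp1 and Cgnl1 lay above control in Runx1KO and below control in ZebDKO libraries, whereas Tjp3 lay above control in Runx1KO only.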

How the results depend on the processing

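Of 290 recalculated values of the 6 tested genes, 285 kept their direction and their side of the threshold and 0 reversed. Cgnl1 between the knockouts fell to 0.998 under median-ratio scaling and was no longer called, leaving 2 of the 8 genes. With a limit of 1.3-fold, Tjp1 and Cgnl1 were also called in Runx1KO, Tjp1 in ZebDKO, and Cgn between the knockouts, while the genes called in all became 4857, 6746 and 6780 for Runx1KO, ZebDKO and the direct comparison. Of 681 values of the other genes named, 652 kept direction and side, 7 lost and 12 gained a call, and 10 that were not called changed sign. Leaving out each library changed no call of the 6 tested members, but Ocln could not be tested without a knockout library, since it then missed the filter. Ocln over control moved from 1.77 to 4.64 in Runx1KO and from 1.89 to 4.81 in ZebDKO cells with a pseudocount of 0.1, because control was at 0. With the 6-library TPM values, 4 of the 8 genes and 1555 of 12374 genes in all were called, with Ocln at 2.94.

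Same-numbered libraries deviated from their group means with correlations of -0.05 to 0.04 and were not taken as pairs. A replicate block changed no call of the 8 genes (4, 3 and 3 called) and gave 1709, 1922 and 2071 genes called in all.

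Within 5 kb of a start the genes with a peak fell to 3 (induced), 1 (Runx1), 3 (Runx2 in control) and 3 (Runx2 in Runx1KO). With 50 kb on each side, 2 genes had a region that lost accessibility. With the span of Cgn cut to its shorter transcript, an alternative chosen after seeing the data, 7 genes had an induced peak and 5 a Runx2 peak in Runx1KO cells. The cause of these changes, beyond the width searched, was not tested.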
